A study of Rattus norvegicus with 4 samples.

Results

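The genes described here are 7 genes of the interleukin-1 (IL-1) family and of the inflammasome: Il1a, Il1b, Il18, Il1rn, Nlrp3, Pycard and Casp1. They were chosen by name, and a probe was taken for a gene when its RefSeq accession led to that symbol. All 7 had at least 1 probe, among 16581 genes with a symbol on the array. The cells were NR8383, a line of rat alveolar macrophages derived by lung lavage and here at 20 passages. They received 9.25 µg/mL of NiZnFe2O4, a spinel-type metal oxide, for 4 h, in 4 biological replicates with 1 one-colour Agilent array each. The design also names cells incubated without the particles. Those cells are not analysed here. The values therefore show which transcripts the exposed cells held and how they varied between replicates, and none shows an effect of the exposure.

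IL-1 alpha, IL-1 beta and IL-18 are cytokines that start and sustain inflammation, and IL-1 beta and IL-18 are made as inactive precursors. In a macrophage the sensor protein NLRP3 responds to danger signals, among them ingested particles, and gathers the adaptor ASC, encoded by Pycard, which in turn recruits caspase-1. This complex, the inflammasome, lets caspase-1 cut both precursors into their active forms, while the IL-1 receptor antagonist encoded by Il1rn occupies the IL-1 receptor without signalling. Much of this pathway is controlled at the protein level, which these RNA measurements do not cover.

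Il1a and Il1b lie next to each other among the protein-coding genes of the RefSeq annotation, on the same strand. The 100 bases before the annotated start of each are shown because these neighbours differed in how far their signals spread between replicates. Any tie between the sequences and that spread was not tested. They come from RefSeq on the build GRCr8, at chr3:136990018-136990117 for Il1a and chr3:137036582-137036681 for Il1b, both on the minus strand, and run 5′ to 3′ towards the start site. Capitals mark the letters TATAAA, the core of the TATA box motif.
Il1a: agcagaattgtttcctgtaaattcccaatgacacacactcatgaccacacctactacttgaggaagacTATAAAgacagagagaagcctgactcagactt
Il1b: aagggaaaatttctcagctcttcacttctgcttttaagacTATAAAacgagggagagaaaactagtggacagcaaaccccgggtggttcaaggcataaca
The motif ends 27 bases before the start in Il1a and 55 bases before it in Il1b. Over the 250 bases before the start, on both strands, 12.9% of 33469 annotated promoters hold TATAAA, so the match is a description of these sequences only. It was also found on the opposite strand in Il1a and Il1rn. The letters TGANTCA, an AP-1 type motif, were also found in Il1a, 6 bases before the start, against 6.34% of all promoters. A kappa B type motif (GGG, any 5 bases, CC) was found in Il1rn, Il18 and Casp1 and not in this window of Il1a or Il1b, against 42.3% of all promoters.

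Nearly every member was measurable in the exposed cells. A probe was called well above background by the flag of the scanner software, and a gene passed when any of its probes did so on all 4 arrays. Il1a, Il1b, Il18, Il1rn, Pycard and Casp1 passed, which is 6 of the 7 members, where 38.7% of all genes with a symbol passed. Nlrp3 passed on 3 of 4 arrays. All 7 members passed on at least 3 arrays, where 41.5% of all genes did, and all 7 met a looser flag for a positive and significant signal on all 4 arrays, where 50.9% did. None of the members failed on every array, as 51.4% of all genes did. Of 1232 negative control spots over the 4 arrays, 1 carried the same flag. The members were chosen with earlier results of these data known, and with 1 group no test applies to these shares.

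The whole arrays set the frame for these values. Between 21812 and 24981 of 58717 spots per array were well above background, and Pearson's r between pairs of arrays was 0.975 to 0.986 across the 6418 genes above background, which are not independent replicates. All 4 arrays lay on 1 slide with 1 scan time. Of 17 macrophage markers 12 passed, among them Cd68, Lyz2, Csf1r and Spi1, while Marco, Cd163 and Adgre1 passed on no array. Among markers of other cells, 1 of 10 for lung epithelium (Foxj1) and 1 of 7 for neutrophils (Camp) passed. For lymphocytes 3 of 8 passed (Nkg7, Lck and Pax5), and for fibroblasts and endothelium 4 of 9 (Dcn, Cdh5, Vwf and Pecam1), shares of 37.5% and 44.4% that are near that of all genes. The part of such cells or transcripts in the members' signals was not tested. Overall brightness differed: the 75th percentile of the spot signal was 229, 182, 130 and 140 intensity units on replicates 1 to 4.

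The IL-1 agonists come first. Il1b encodes the main secreted IL-1 cytokine of macrophages. Its 1 probe gave a processed signal, in intensity units, of 684 on replicate 1, 628 on replicate 2, 390 on replicate 3 and 470 on replicate 4. The spot itself was 14.1 to 24.1 times as bright as its local background. Levels below are on the log2 scale relative to the 75th percentile over all probes of the same array, which removes most of the difference in brightness. That percentile was 5.38, 5.03, 4.55 and 4.63 in log2 units on replicates 1 to 4. It is not the percentile over spots given above. As a scaled level Il1b stood at 4.04, 4.26, 4.05 and 4.25, with a mean level of 4.15 ± 0.12 (SD, n = 4). Replicates 2 and 4 were slightly above replicates 1 and 3, and the highest level was 1.17 times the lowest.

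Il1a encodes IL-1 alpha, which is active without caspase-1 and acts as an alarm signal when cells die. Its processed signal was 885, 558, 259 and 424 on replicates 1 to 4, a 3.42-fold range before scaling. The spot was 11.4 to 32.4 times as bright as its background, so none of these values was near the detection limit. The scaled level was 4.41, 4.09, 3.46 and 4.10, with a mean of 4.02 ± 0.40 (SD, n = 4). Replicate 1 was the highest and replicate 3 the lowest, at 1.93-fold apart, with replicates 2 and 4 close together between them. The relative error that the scanner software gave for the Il1a spot was 10.0% to 10.1% of the signal on each array. Nearly the same figure, 10.0% to 10.05%, was given for Il1b, Il1rn and Il18. Across the repeated Il1rn spots of an array the measured SD was 3.97% to 6.74% of the mean. The software figure is thus not a measured spot error of Il1a. These are bulk measurements, in which fewer cells with a transcript and less of it per cell cannot be told apart.

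Il18 encodes the other caspase-1 substrate among the members. Its signal was 805, 569, 384 and 437 on replicates 1 to 4. The scaled level was 4.27, 4.12, 4.03 and 4.14, with a mean of 4.14 ± 0.10 (SD, n = 4). As for Il1a, replicate 1 was the highest and replicate 3 the lowest, with a range of 1.18-fold. Signals of unlike probe sequences are not on 1 scale, so the near-equal numbers for Il1a, Il1b and Il18 say nothing of their relative abundance.

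Il1rn, the antagonist, is the best measured member because its probe was printed in 10 spots spread over each array. The lowest, median and highest spots were 1385, 1511 and 1602 on replicate 1, 994, 1085 and 1145 on replicate 2, 712, 824 and 893 on replicate 3, and 841, 922 and 957 on replicate 4. On replicate 4 the spots number 7, since 3 carried an outlier flag. The spots of replicates 1 and 2 did not overlap with each other or with those of any other array, whereas those of replicates 3 and 4 overlapped. Scaling removed this order: the level was 5.18, 5.04, 5.10 and 5.19, with a mean of 5.13 ± 0.07 (SD, n = 4). Spots of the same array differed with an SD of 0.06, 0.06, 0.10 and 0.07 log2 units, which gives a standard error of at most 0.03 for the mean of an array.

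**Figure D1:**
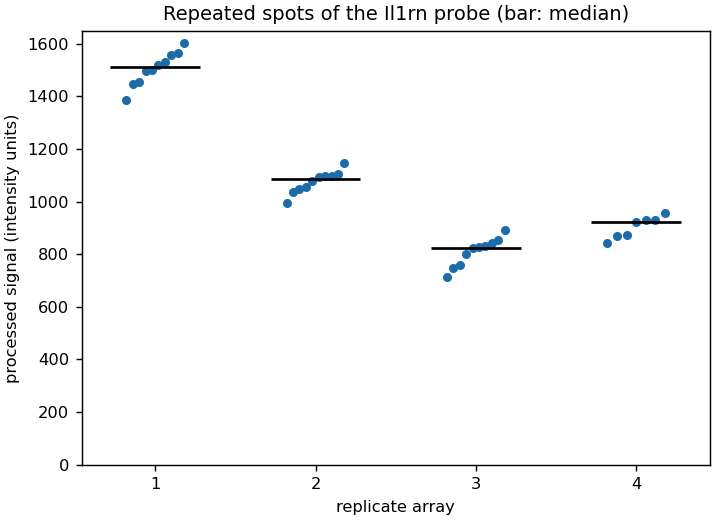
The processed signal in intensity units of each used spot of the Il1rn probe is plotted for the 4 arrays, with a bar at the median. The spots of replicate 1 lie between 1385 and 1602 and those of replicate 3 between 712 and 893, a difference in brightness that scaling takes out.

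The repeated spots also give the size of the error within an array. Across the probes printed in 10 spots and well above background, between 979 and 1018 per array, the median SD between spots was 0.06, 0.08, 0.06 and 0.09 log2 units on replicates 1 to 4. Between arrays the SD of Il1rn, 0.07, was above the standard error of its mean over spots on each array. That standard error covers spots within an array only, and technical error between arrays was not measured. After scaling, genes above background deviated from the other arrays by a median of -0.08, -0.02, 0.02 and 0.08 on replicates 1 to 4. The other members have 1 spot per array for each probe, so their own spot error was not measured.

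Of the inflammasome genes, Pycard and Casp1 were well above background throughout and Nlrp3 lay near the detection limit. Pycard, the adaptor, gave a signal of 273, 190, 181 and 192 on replicates 1 to 4, at 6.48 to 10.8 times its background. Its scaled level was 2.71, 2.54, 2.94 and 2.95, with a mean of 2.79 ± 0.20 (SD, n = 4). Replicates 3 and 4 were nearly equal and above the other two, with replicate 2 the lowest, at a range of 1.34-fold.

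Casp1 encodes the protease that the complex activates. Its signal was 203, 168, 105 and 120 on replicates 1 to 4, at 4.69 to 9.37 times its background. The scaled level was 2.29, 2.36, 2.16 and 2.28, with a mean of 2.27 ± 0.08 (SD, n = 4). The levels lay within 1.15-fold of each other.

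Nlrp3, the sensor, had 3 probes that disagreed. The probe A_44_P1109874 gave a signal of 24.7, 36.3, 13.5 and 19.1 intensity units on replicates 1 to 4 and was well above background on replicates 1, 2 and 4. The highest negative control spot on the same arrays reached 19.6, 6.03, 13.6 and 8.71, so on replicate 3 the probe did not exceed it. The probe A_44_P1109879 gave 13.7, 3.25, 3.97 and 3.84 and the probe A_44_P281733 gave 6.43, 3.00, 3.88 and 3.64, and neither was well above background on any array. Under the looser flag the brightest probe passed on all 4 arrays, A_44_P1109879 passed on replicates 1 and 3, and A_44_P281733 on replicate 1. The 2 dimmer probes are annotated with the same curated RefSeq transcript and the brightest with a predicted one. Which probe stands for the Nlrp3 message of these cells was not tested, and no mean level is given.

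**Figure D2:**
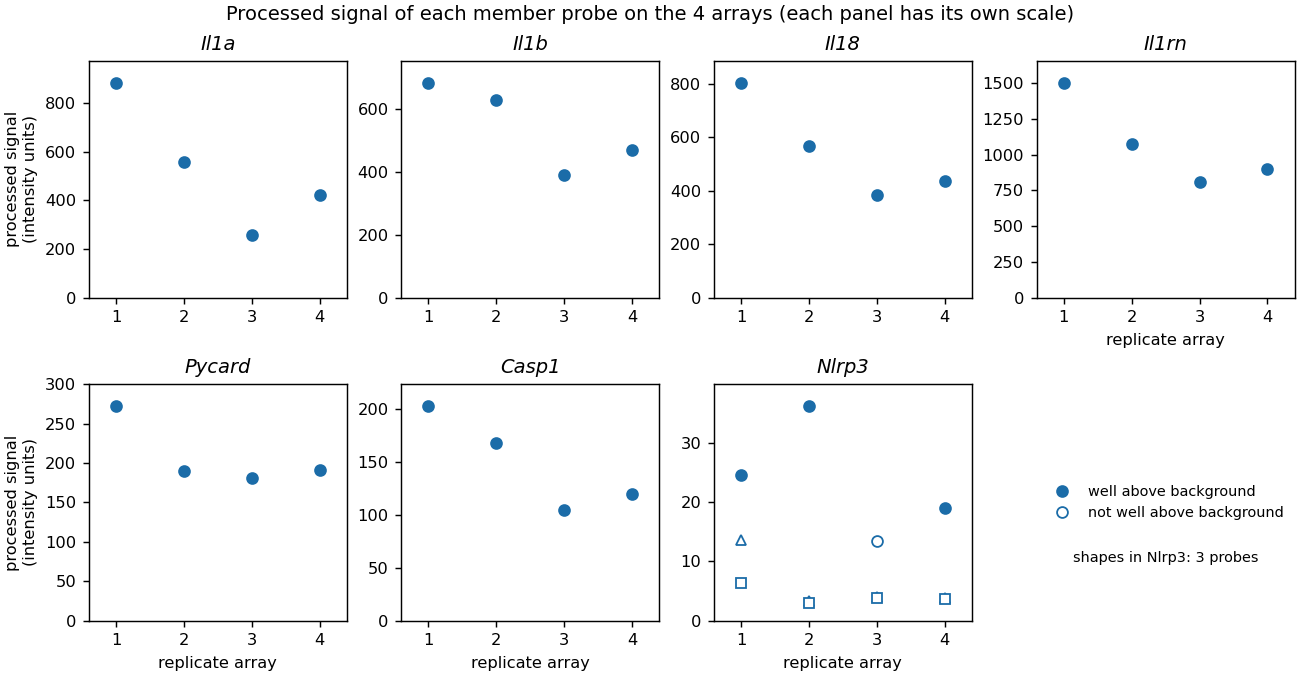
The processed signal in intensity units is plotted for each member probe on the 4 arrays, with a scale of its own in each panel, filled where the probe was well above background. The 6 genes with filled points throughout have their highest signal on replicate 1 and their lowest on replicate 3, while the 3 Nlrp3 probes stay at or below 36.3 and only 1 of them has filled points.

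All 6 members above background had their highest unscaled signal on replicate 1 and their lowest on replicate 3. This follows the brightness of the arrays, since 80.1% of the 6418 genes above background were also highest on replicate 1 and 61.3% lowest on replicate 3. After scaling the pattern was held by Il1a and Il18, and by 9.38% of those genes.

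After scaling, 5 of the 6 members had a smaller SD than the median gene and Il1a a larger one. The median SD over the 6 members was 0.11 log2 units, against 0.23 over the 6418 genes above background. The 10th and 90th percentiles over those genes were 0.10 and 0.43. The 6418 genes were not matched to the members on level. Mean levels of the 6 members were 2.27 to 5.13, and lower genes such as Cd14, at 0.09, are among the 6418. The SD of Il1rn lay above that of 3.18% of the 6418 genes, Casp1 above 5.45% and Il18 above 9.10%. That of Il1b lay above 14.4% and that of Pycard above 41.9%. These ranks are for the main scaling. With the 75th percentile over probes above background, the SD went from 0.08 to 0.13 for Casp1 and from 0.10 to 0.15 for Il18. It went from 0.07 to 0.08 for Il1rn, from 0.12 to 0.13 for Il1b and from 0.20 to 0.14 for Pycard. The Il1rn level averages 10 spots per array, or 7 on replicate 4, which lowers its spot error. The other members rest on 1 spot, so the rank of Il1rn is not on equal terms with theirs. The SD of Il1a lay above that of 87.0%, and 833 genes had a larger one. The count of 5 of 6 members below the median gene was the same with quantile normalization and with the 75th percentile over probes above background. It was 2 of 6 without scaling or with spike-in centring, and 1 of 6 after normexp background correction of the median signals. The SD of Il1a lay above that of 85.99% to 97.79% of genes in these settings, with the mean of all probes and with outlier spots kept, but its position rested on replicate 3, without which its SD lay above that of 40.29% of genes.

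**Figure D3:**
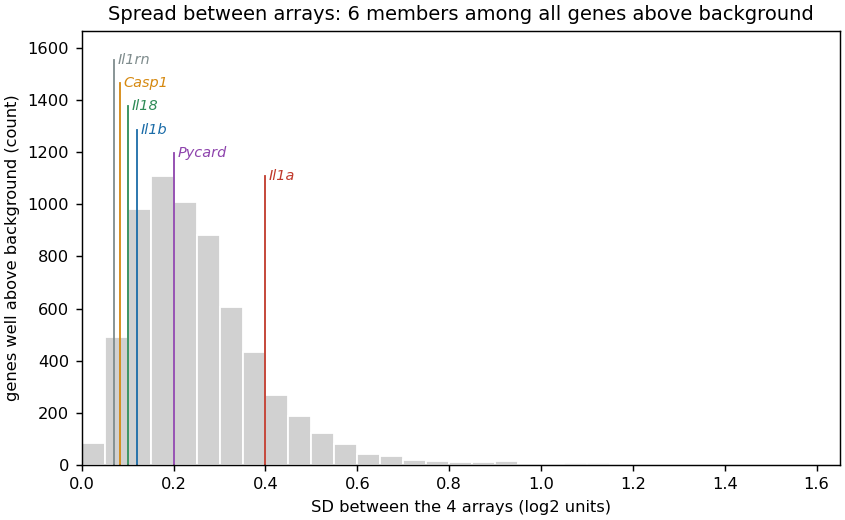
The grey bars count all genes well above background by their SD between the 4 arrays in log2 units, and the coloured lines mark 6 members. Il1rn, Casp1, Il18 and Il1b lie on the left side of the distribution at 0.07 to 0.12, Pycard at 0.20, and Il1a on the right at 0.40.

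**Figure D4:**
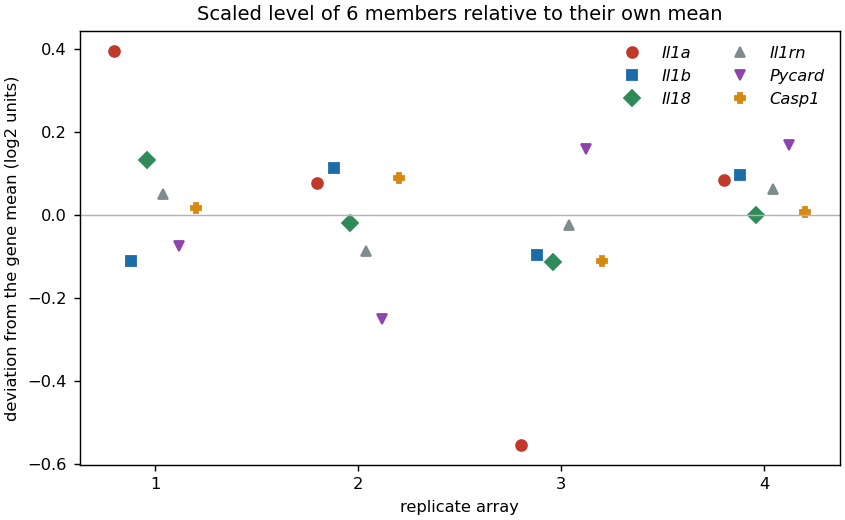
The scaled level of each of the 6 members above background on all 4 arrays is plotted as its deviation from the mean of that gene, in log2 units; Nlrp3 is not plotted. Il1a deviates by 0.39 on replicate 1 and by -0.55 on replicate 3, while the other 5 plotted genes stay between -0.25 and 0.17.

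The difference between 2 members on the same array is not altered by subtracting 1 value per array, as the main scaling does, and how it varies from array to array shows whether they varied alike. Among the 15 pairs of the 6 members, the SD of this difference was 0.09 for Il1rn and Il18, for Il1b and Casp1, and for Il18 and Casp1. The 5 pairs that include Il1a had SDs from 0.31, with Il18, to 0.53, with Pycard, and the 10 pairs without it reached at most 0.27. For Il1a against its neighbour Il1b the difference deviated from its mean by 0.51, -0.03, -0.46 and -0.01 log2 units on replicates 1 to 4. Replicate 1 thus held relatively more Il1a to Il1b signal and replicate 3 relatively less. Without replicate 3 the SD of Il1a was 0.18 log2 units, and Pycard, at 0.21, had the largest SD of these 6 members.

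The surroundings of the member spots were also read. Around the Il1a spot, within 10 rows and 10 columns, 77 probes printed in 1 spot and above background deviated from the median of the other arrays by a median of -0.12, 0.06, -0.06 and 0.11 log2 units on replicates 1 to 4. The Il1a spot itself deviated by 0.32, -0.01, -0.64 and 0.01. The same array-wide deviations over all genes above background were -0.08, -0.02, 0.02 and 0.08. Around the Il18 spot the local deviation was -0.24, -0.01, 0.03 and 0.21. With the local deviation removed, the SD of Il1a was 0.41 log2 units. That of Il18 went from 0.10 to 0.26, Casp1 from 0.08 to 0.13 and Il1b from 0.12 to 0.07. Il1rn went from 0.07 to 0.09 and Pycard from 0.20 to 0.22. The SD over all genes was not computed in this setting.

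By the rule for likeness, the 2 genes nearest to a member were those with the smallest root mean square difference in deviation over the 4 arrays. For Il1a these were Slc39a8, which encodes the zinc importer ZIP8, at 0.05 and Tfec, a transcription factor gene of macrophages, at 0.06 log2 units. Slc39a8 deviated by 0.43, 0.01, -0.48 and 0.05 on replicates 1 to 4, and Tfec by 0.44, 0.03, -0.49 and 0.02. Within 0.1 log2 units of Il1a lay 17 of the 6417 genes compared. For Il1b the nearest were Cwc15 and Sat1, each at 0.01, but 582 genes lay within 0.1, as deviations this small have many matches. For the same reason Il1rn, with Mrpl20 and Mrps26 nearest, had 699 such genes, Il18, with Chchd1 and Lhx6, 622, Pycard, with Wdr24 and Atp13a3, 390, and Casp1, with Tpd52l2 and Dlgap5, 687. With 4 arrays these are descriptions only.

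The other genes of the pathway were taken from a list by role, chosen with earlier results of these data known. Of 51 listed genes 45 could be tied to a probe. Of these 19, or 42.2%, passed on all 4 arrays against 38.7% of all genes. The share over the list was thus near the background. By role, 3 to 11 genes were measured, so the counts given below for each role are descriptions and were not tested. They stand beside 38.7% of all genes that passed on all 4 arrays and 51.4% that passed on none.

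Among the remaining IL-1 family cytokines none of the 6 measured genes was well above background on all 4 arrays. Il33, Il36a, Il36g, Il36rn and Il1f10 passed on no array, and Il36b passed on 1. Il33 encodes an alarm cytokine stored in the nucleus, mostly of barrier cells, and the Il36 genes encode epithelial relatives of IL-1.

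Of 8 measured receptor and binding protein genes 2 passed on all 4 arrays and 6 on none. Il1rap, the co-receptor shared by IL-1 and IL-33, stood at 0.55, 0.65, 0.56 and 0.63 on replicates 1 to 4, with an SD of 0.05, through 1 of its 2 probes. Il18bp, a secreted protein that captures IL-18, stood at 0.45, 0.94, 0.73 and 1.20. Il1r1, the signalling IL-1 receptor, and Il1r2, its decoy, were on no array well above background. The same held for Il18r1, Il1rl1, Il1rl2 and Sigirr.

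Downstream of the receptor, 5 of 7 genes passed. Myd88, the adaptor shared with Toll-like receptors, stood at a mean level of 5.31 ± 0.10 (SD, n = 4), and Irak3, a brake on this signal, at 3.26 ± 0.08 (SD, n = 4). Irak1, Irak2 and Tollip also passed. The kinase gene Irak4 and the ubiquitin ligase gene Traf6 passed on no array, though both were positive and significant on all 4 under the looser flag.

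None of 5 measured inflammasome sensors other than Nlrp3 was well above background on any array. These were Nlrp1a, Mefv, Nlrp6, Nlrp10 and Nlrp12, of which Nlrp1a and Nlrp6 met the looser flag on all 4 arrays. Nlrc4, Aim2, Naip6 and Nlrp1b could not be tied to a probe here.

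Of 5 measured caspase and pore genes 3 passed. Casp4, which encodes the caspase that senses cytosolic lipopolysaccharide, stood at 1.09, 1.06, 1.08 and 1.06 on replicates 1 to 4, with an SD of 0.01. Ninj1, whose product ruptures the membrane of dying cells, stood at 4.28, 4.57, 4.74 and 5.35, a 2.10-fold range with replicate 4 the highest. Casp8, a caspase of death receptor signalling, stood at 0.73, 1.09, 0.09 and 0.77, with replicate 3 the lowest, and passed through 1 of its 2 probes. Gsdme and Casp12 passed on no array, and Gsdmd, the main pore protein gene of pyroptosis, could not be tied to a probe here.

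Of 11 genes that trigger or regulate NLRP3, 6 passed throughout, 1 passed on some arrays and 4 on none. Txnip, a thioredoxin-binding protein gene, stood at -0.01, 0.69, 0.28 and -0.02, and Pstpip1, whose product binds pyrin, at 2.71, 2.70, 3.13 and 3.53 on replicates 1 to 4. Brcc3, the deubiquitinase of NLRP3, Sugt1, Kcnk6 and Mavs also passed, Brcc3 and Sugt1 through 1 of 2 probes each. Trpm2, an ion channel gene, passed on 3 arrays. Nek7, the kinase that binds NLRP3, P2rx7, the ATP-gated channel, Panx1 and Gbp5 were on no array well above background, and Nek7 met the looser flag on all 4. All 3 calpain genes listed for the cutting of IL-1 alpha passed, with Capn1 at 4.48 ± 0.20, Capn2 at 4.34 ± 0.12 and Capns1 at 4.84 ± 0.28 (SD, n = 4 each).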

How the data were processed

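Per the file headers and the submitters' processing notes, the authors extracted the arrays with Agilent Feature Extraction 11.0.1.1. The deposited signals are linear intensities, corrected within each array and not scaled between arrays. The deposited spot flags (other values, coded 0 or 1) mark spots above background and outliers. Control spots and the 491 to 828 outlier spots per array were left out, spots of a probe were averaged on the log2 scale, and a probe passed when at least 0.5 of its spots did. Of 45598 probes, 21109 had 1 symbol through RefSeq (GRCr8). The array design names rn4, so no coordinates of probes are given. Each gene was represented by its probe of highest mean, and levels are given minus the 75th percentile over all probes of the array. No test between groups was made, as the labels give 1 group. Named genes are the members, the pathway lists by role, and the 2 genes most like each member. The members and lists were chosen with earlier results of these data known. The number of arrays limits precision. Alternatives were another background flag, 3 of 4 arrays, all probes, other scalings, normexp (limma 3.58.1, R 4.3.3, offset 50, on median signals), outlier spots kept, the local trend, and leaving out each replicate. Other steps ran in Python 3.11.15 with numpy 2.4.6 and pandas 2.3.3, and were tested on simulated data.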

Additional observations from a re-analysis of the deposited data

How the results depend on the processing

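The count of 6 members above background was 7 with the looser flag, when 3 of 4 arrays sufficed and without replicate 3. It was 6 in the other alternatives run, and the added member was Nlrp3. Each of the 6 has 1 probe, so requiring every probe to pass could not change their count. For the same reason the mean of all probes could not change their levels or SDs. The count of 19 pathway genes lay between 15, when every probe had to pass, and 27 with the looser flag. The median SD of the 6 members, 0.11 log2 units, was 0.41 without scaling, 0.60 with centring on 7 spike-in probes, 0.24 with normexp and 0.17 with the local trend removed, and 0.10 to 0.12 when a replicate was left out. The SD over all genes moved too, with a median of 0.38 without scaling, 0.57 with spike-in centring and 0.19 with normexp, against 0.23. Il1a had the largest SD of these 6 members in each setting except without replicate 3; Nlrp3, which did not pass on all 4 arrays, is not among them. No member or pathway gene above background, 25 in all, had 1 array apart from the other 3 by Dixon's criterion, against 4.91% of all genes above background. No paired analysis was possible because the labels give 1 group. Nlrp3 lies near background, and its level is limited by that.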
